A study of Mus musculus with 36 samples.

Results

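The DNA sites bound by Cas9 of Streptococcus pyogenes (SpCas9) in Neuro2A cells, a mouse neuroblastoma line grown in culture, were compared with those in mouse hypothalamus. Both sources were profiled by chromatin immunoprecipitation and sequencing (ChIP-seq) with 1 SpCas9 antibody. The members are all 561 peaks of 4 peak lists, of 822 peaks in the 6 lists of the series. With the sgRNA for the Sim1 promoter there were 127 peaks in Neuro2A and 92 in hypothalamus, and with the sgRNA for a Sim1 enhancer there were 205 in Neuro2A and 137 in hypothalamus. The hypothalamus came from adult B6/FVB mice of genotype Sim1 +/-, labelled female for the promoter sgRNA and as pooled male and female for the enhancer sgRNA. The Neuro2A libraries carry the same mouse labels, which do not describe a cell line and were not used. Each list stands for 2 libraries labelled as replicates, 8 in all, but holds 1 value per peak. No spread between replicates can therefore be given, no difference below was tested, and each is a description of 2 lists. The 2 other lists, from hypothalamus with an antibody against Cas9 of Staphylococcus aureus (SaCas9), held 140 peaks with the promoter sgRNA and 121 with the enhancer sgRNA. They are set beside the results where they touch them, and SpCas9 libraries without an sgRNA were not analysed here. The labels give neither the bases each sgRNA targets nor what drives Cas9 in either source, and a peak list holds no marker by which the cells could be checked.

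Cas9 is a bacterial protein that a guide RNA directs to matching DNA beside a short motif, the PAM, which is NGG for SpCas9. In CRISPR activation the protein binds without cutting and carries an activator to a promoter or enhancer. Sim1 is a bHLH-PAS transcription factor on which neurons of the hypothalamic paraventricular nucleus depend, and 1 working copy is not enough for normal control of body weight. The series lists off-target binding among its questions, and the comparison of a cell line with the tissue shows which listed sites were found in both chromatin sources.

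Both Sim1 sites were found in all 4 lists and ranked from 1 to 4 by fold enrichment in each. No other peak lay within 1 Mb of Sim1 in any SpCas9 list. The first site lies at the start of Sim1 (chr10:50893923-50894707 in Neuro2A with the promoter sgRNA, GRCm38.p6). Its summits in the SpCas9 lists fell 345 to 459 bp before the first base of the RefSeq gene Sim1, and the peaks covered 10 to 20 bases of the gene and the start of A230054N11Rik, a non-coding gene on the other strand. The RefSeq table of starts gives another start of Sim1 further into the gene, at position 50895651, and the summits lay 1298 to 1412 bp before that one. The second lies between genes (chr10:51257370-51258150), 269 kb beyond the end of Sim1 and 363 kb from its start. Both sites were present with both sgRNAs, so neither sgRNA was marked by a peak that the other lacked here.

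RefSeq windows of 300 bases (250 before to 50 after a start, GRCm38.p6) of 9 genes overlapped an SpCas9 peak. Of these, 4 are shown, each from the gene's own strand, with capitals for the bases inside every SpCas9 peak listed there. They stand for a site at the intended locus, another site of all 4 lists, a site of both hypothalamus lists, and a site of both Neuro2A lists. Their places are chr10:50894485-50894784 (minus strand), chr10:79908889-79909188 (minus strand), chr7:43824294-43824593 (plus strand) and chr16:45654069-45654368 (minus strand).
A230054N11Rik: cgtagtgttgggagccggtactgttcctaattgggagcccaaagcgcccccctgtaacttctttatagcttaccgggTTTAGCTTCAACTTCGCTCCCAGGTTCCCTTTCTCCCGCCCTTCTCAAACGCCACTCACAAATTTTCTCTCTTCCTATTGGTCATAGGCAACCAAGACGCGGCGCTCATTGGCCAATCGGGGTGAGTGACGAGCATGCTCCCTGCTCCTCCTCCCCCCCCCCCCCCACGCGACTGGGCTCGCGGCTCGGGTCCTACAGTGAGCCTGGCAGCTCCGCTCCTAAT
Med16: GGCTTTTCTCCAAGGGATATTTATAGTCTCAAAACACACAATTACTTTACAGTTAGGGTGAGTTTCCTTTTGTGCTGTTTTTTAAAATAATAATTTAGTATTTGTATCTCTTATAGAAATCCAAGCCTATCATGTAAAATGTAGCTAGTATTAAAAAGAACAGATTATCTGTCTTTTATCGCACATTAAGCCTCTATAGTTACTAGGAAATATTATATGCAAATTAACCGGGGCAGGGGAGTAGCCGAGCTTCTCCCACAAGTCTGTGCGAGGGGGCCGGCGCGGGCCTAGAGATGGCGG
Klk6: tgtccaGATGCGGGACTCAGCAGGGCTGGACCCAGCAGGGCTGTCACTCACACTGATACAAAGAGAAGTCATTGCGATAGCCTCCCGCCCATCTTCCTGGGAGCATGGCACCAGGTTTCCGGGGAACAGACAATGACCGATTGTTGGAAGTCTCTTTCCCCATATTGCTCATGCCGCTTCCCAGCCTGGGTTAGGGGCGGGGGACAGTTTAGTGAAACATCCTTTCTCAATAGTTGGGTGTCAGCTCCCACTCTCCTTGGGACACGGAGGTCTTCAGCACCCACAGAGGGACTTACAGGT
BC016579: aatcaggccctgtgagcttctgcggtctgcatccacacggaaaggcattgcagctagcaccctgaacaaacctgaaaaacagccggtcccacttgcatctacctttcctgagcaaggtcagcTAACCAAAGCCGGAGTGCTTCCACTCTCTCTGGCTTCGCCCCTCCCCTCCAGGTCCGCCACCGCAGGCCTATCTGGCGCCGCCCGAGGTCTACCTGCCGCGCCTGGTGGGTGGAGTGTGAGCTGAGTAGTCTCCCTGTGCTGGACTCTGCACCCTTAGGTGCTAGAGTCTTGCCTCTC
The window of A230054N11Rik, whose start lies beside that of Sim1, has 223 bases inside the peaks of all 4 lists, a GC content of 58.7% and 64 copies of NGG on both strands together, overlaps counted. The window of Med16, which encodes a subunit of the Mediator complex, lies wholly inside all 4 peaks, with a GC content of 39.3% and 31 copies. Klk6, a secreted serine protease of oligodendrocytes, has 294 bases inside both hypothalamus peaks and 58 copies. BC016579 has 178 bases inside both Neuro2A peaks and 54 copies. All 32851 windows of the table hold NGG, with a median of 48 copies and a median GC content of 52.7%, so the motif alone sets none of these windows apart.

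At the start of Sim1 the pileup, the number of fragments stacked at the summit, lay between 244 and 252 in every list. With the promoter sgRNA it was 244 in Neuro2A and 248 in hypothalamus, and with the enhancer sgRNA it was 250 in Neuro2A and 252 in hypothalamus. At the site beyond Sim1 it was 192 in Neuro2A and 256 in hypothalamus with the promoter sgRNA, and 267 in Neuro2A and 268 in hypothalamus with the enhancer sgRNA. The lowest of the 8 values thus belongs to Neuro2A with the promoter sgRNA.

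Fold enrichment, the authors' ratio of the pileup to the local background with 1 added to each, separated the sources with the promoter sgRNA. The start of Sim1 stood at 58.1 in Neuro2A and 175 in hypothalamus, a ratio of 0.333. The site beyond Sim1 stood at 43.2 in Neuro2A and 180.1 in hypothalamus, a ratio of 0.240. With the enhancer sgRNA the sources lay close together, at 119 in Neuro2A and 134 in hypothalamus for the start of Sim1, and at 130.4 in Neuro2A and 143 in hypothalamus for the site beyond it. Those ratios are 0.886 and 0.913.

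The background behind each fold enrichment follows from its definition and moved with the same lists. Its lowest value, the floor of a list, was 3.15 in Neuro2A and 0.427 in hypothalamus with the promoter sgRNA, which with 1 added to each is a ratio of 2.91. For the enhancer sgRNA it was 0.988 in Neuro2A and 0.883 in hypothalamus, a ratio of 1.06 on the same terms. At equal pileup a higher floor gives a lower fold enrichment by arithmetic, so with the promoter sgRNA fold enrichments from the 2 sources are on different footings. The SaCas9 lists had floors of 2.65 and 4.74, and the start of Sim1 stood there at pileups of 251 and 221 and fold enrichments of 67.3 and 38.0 with the promoter and the enhancer sgRNA. How the control of each list was chosen is not stated in these sources, and its part in these values was not tested.

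**Figure D1:**
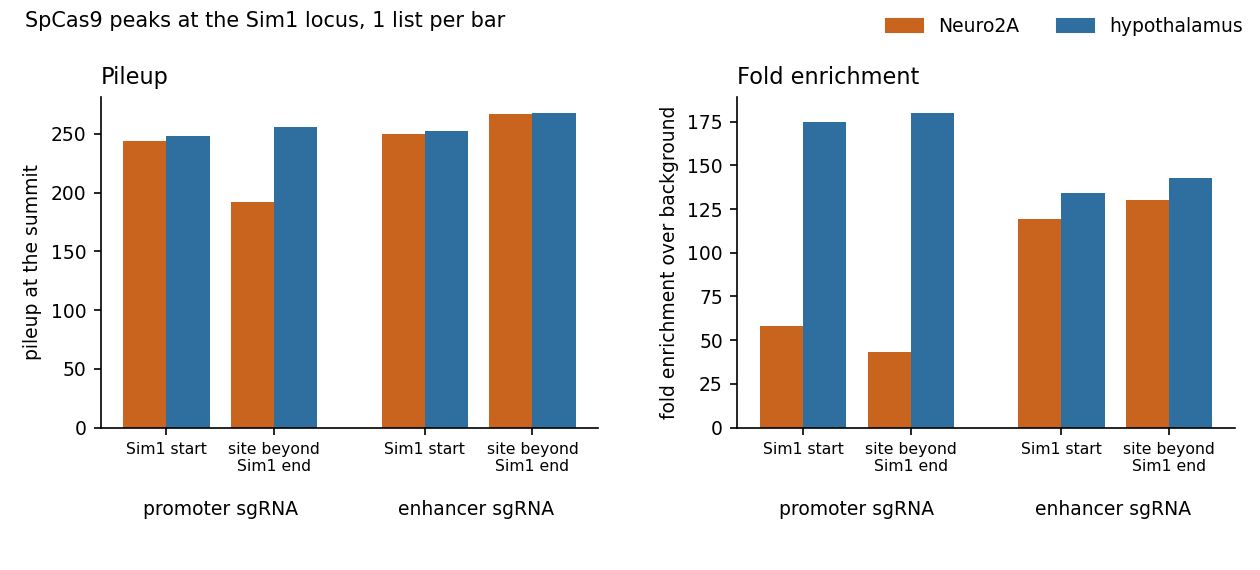
Pileup at the summit (left) and fold enrichment over background (right) of both Sim1 sites, with 1 bar per peak list, Neuro2A in orange and hypothalamus in blue, grouped by sgRNA. Pileups lie between 192 and 268 in all 8 bars, while fold enrichments with the promoter sgRNA are 58.1 and 43.2 in Neuro2A and 175 and 180.1 in hypothalamus.

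Over whole lists, about 1 peak in 5 of Neuro2A and 1 in 3 of hypothalamus overlapped a peak of the other source by at least 1 bp. For the promoter sgRNA 28 of 127 Neuro2A peaks (22%) overlapped 32 of 92 hypothalamus peaks (34.8%). In the enhancer sgRNA lists 42 of 205 Neuro2A peaks (20.5%) overlapped 46 of 137 hypothalamus peaks (33.6%). The 2 numbers of a pair differ because a long peak in 1 source can meet several shorter ones in the other. That left 99 Neuro2A-specific and 60 hypothalamus-specific peaks with the promoter sgRNA, and 163 Neuro2A-specific and 91 hypothalamus-specific peaks with the enhancer sgRNA. Source-specific here means only that the other list of that sgRNA holds no overlapping peak.

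Among the 4 SpCas9 lists, those of the same source held more sites in common than those of the same sgRNA. In Neuro2A 97 of the 127 promoter sgRNA peaks (76.4%) overlapped an enhancer sgRNA peak, which is 96 of 205 (46.8%) of that list. More of the 127, 103 (81.1%), overlapped the SaCas9 list of the promoter sgRNA, which is from hypothalamus. In hypothalamus 70 of the 92 promoter sgRNA peaks (76.1%) overlapped an enhancer sgRNA peak, which is 69 of 137 (50.4%) of that list. Overlapping peaks of the 4 lists were merged into 327 sites. Of these, 65 were in both Neuro2A lists and no hypothalamus SpCas9 list, and 36 in both hypothalamus SpCas9 lists and no Neuro2A list. By contrast 1 site was in both promoter sgRNA lists alone and 9 in both enhancer sgRNA lists alone. All 4 lists held 15 sites, 3 of 4 lists held 26, and 172 were in 1 list. Of the 65 Neuro2A sites 62 (95.4%) were in a SaCas9 list from hypothalamus, and of the 36 hypothalamus sites 2 (5.56%) were.

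The place of the peaks differed between the sources more than their number. Peaks on unplaced scaffolds, at the start of chromosome 9 (below 3.1 Mb) and on the mitochondrial genome made up 62 of 127 peaks (48.8%) in Neuro2A and 8 of 92 (8.70%) in hypothalamus with the promoter sgRNA. Under the enhancer sgRNA they made up 69 of 205 (33.7%) in Neuro2A and 7 of 137 (5.11%) in hypothalamus. Scaffolds held 41 and 46 peaks of the Neuro2A lists, against 3 and 0 of the hypothalamus lists, with the promoter and the enhancer sgRNA in that order. The start of chromosome 9 held 19 and 21 peaks in Neuro2A and 3 and 0 in hypothalamus. The SaCas9 lists, which are from hypothalamus, held 58 of 140 (41.4%) and 59 of 121 (48.8%) of their peaks in these regions, so such peaks are not particular to the cell line. All 60 and all 91 hypothalamus-specific SpCas9 peaks lay elsewhere, on placed chromosomes.

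**Figure D2:**
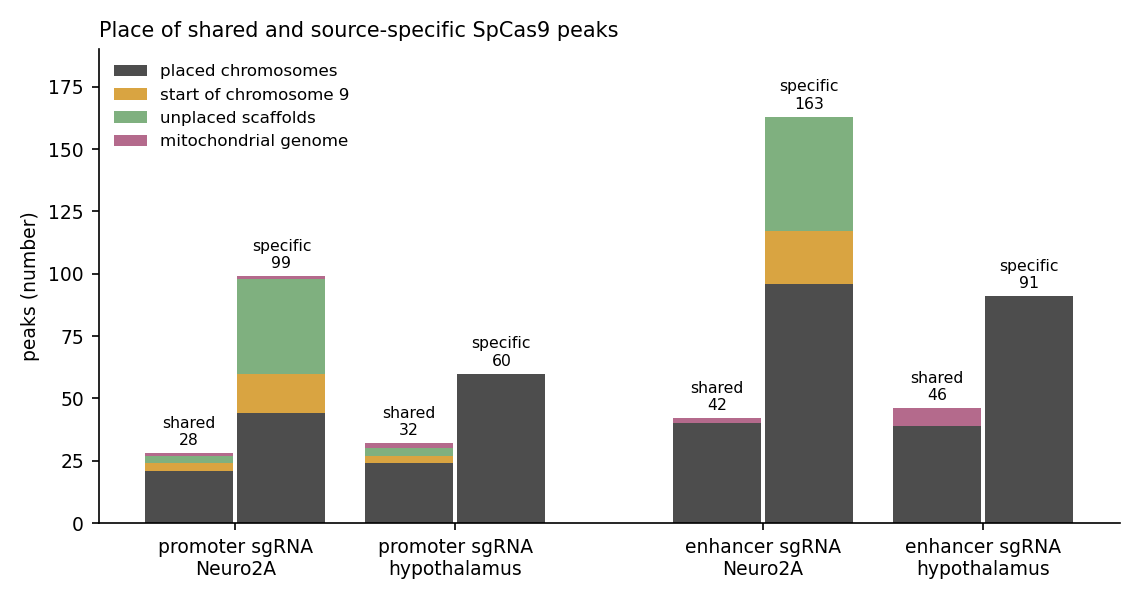
Number of shared and source-specific peaks in each SpCas9 list, split by place. The Neuro2A-specific bars of 99 and 163 peaks hold most of the scaffold and chromosome 9 peaks of Neuro2A, while the hypothalamus-specific bars of 60 and 91 peaks hold placed chromosomes alone.

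Peaks of the Neuro2A lists were often found in hypothalamus with the other antibody, shared and source-specific peaks alike. Over whole lists, 117 of 127 Neuro2A peaks (92.1%) and 36 of 92 hypothalamus peaks (39.1%) of the promoter sgRNA overlapped a SaCas9 peak, and 108 of 205 Neuro2A peaks (52.7%) and 33 of 137 hypothalamus peaks (24.1%) of the enhancer sgRNA did. Of the 99 Neuro2A-specific peaks of the promoter sgRNA, 91 (91.9%) overlapped one, close to the share of the 28 shared Neuro2A peaks at 26 (92.9%), and of the 60 hypothalamus-specific peaks 6 (10.0%) did. Among enhancer sgRNA peaks 86 of 163 Neuro2A-specific peaks (52.8%) and 22 of 42 shared Neuro2A peaks (52.4%) overlapped one, and 7 of 91 hypothalamus-specific peaks (7.69%) did. The whole Neuro2A promoter sgRNA list overlapped the SaCas9 list of the promoter sgRNA at 103 of 127 peaks (81.1%), against 28 for the SpCas9 list of hypothalamus with that sgRNA. Among peaks that no SaCas9 list holds, 2 of 10 Neuro2A peaks and 2 of 56 hypothalamus peaks (3.57%) of the promoter sgRNA were shared, and 20 of 97 Neuro2A peaks (20.6%) and 20 of 104 hypothalamus peaks (19.2%) of the enhancer sgRNA. The shared fraction of Neuro2A peaks thus stayed near that of the whole lists, and that of hypothalamus peaks was smaller.

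Most shared sites were listed with both sgRNAs, and many Neuro2A-specific peaks were too. Of the 28 shared Neuro2A peaks of the promoter sgRNA, 27 (96.4%) overlapped a peak of the enhancer sgRNA in either source, and of the 42 of the enhancer sgRNA 33 (78.6%) overlapped a peak of the promoter sgRNA. Counting only the Neuro2A list of the other sgRNA, 26 of 28 shared (92.9%) and 71 of 99 Neuro2A-specific peaks (71.7%) of the promoter sgRNA recurred. For the enhancer sgRNA 19 of 42 shared (45.2%) and 77 of 163 Neuro2A-specific peaks (47.2%) did. The promoter sgRNA left 1 shared peak that no SpCas9 list of the enhancer sgRNA held, at chr8:123433041-123434045, which both SaCas9 lists held. The enhancer sgRNA left 9 that no SpCas9 list of the promoter sgRNA held. Of all 42 shared Neuro2A peaks of the enhancer sgRNA 26 (61.9%) lay in genes, and of these 9, 8 did. These were Ros1, a receptor tyrosine kinase, Cdh8, a cadherin of neurons, Hcn4, a pacemaker channel subunit, Gss, glutathione synthetase, which the SaCas9 list of the promoter sgRNA held, Parg, which removes ADP-ribose chains, Rab22a, a GTPase of endosomes, Pkd1l2 and Stum. At Ros1, also on chromosome 10, the pileup was 16 in Neuro2A and 13 in hypothalamus, with summits at the same base.

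At paired sites the direction between the sources depended on the measure and on the background. Overlaps gave 32 pairs of peaks with the promoter sgRNA and 49 with the enhancer sgRNA. A peak that met several peaks of the other source counts in several pairs. Over all promoter sgRNA pairs the median log2 ratio of fold enrichment, Neuro2A over hypothalamus, was 0.35, with 12 pairs (37.5%) at least 2-fold higher and 11 (34.4%) at least 2-fold lower in Neuro2A. Among the 11 pairs whose background was under 5 times the floor in both lists it was -1.71, and 10 of the 11 were lower in Neuro2A. The floors alone give -1.54 at equal pileup. Pileups were not equal at these pairs, with log2 ratios from -3.98 to 1.98, and the part of the floors in that median was not tested. By pileup the median of the 11 was -0.26, with 4 pairs higher and 7 lower in Neuro2A. Among the 21 other pairs the median log2 ratio of fold enrichment was 1.19, and that of pileup was 0.70. Over all enhancer sgRNA pairs the median log2 ratio was 0.36, with 16 pairs (32.7%) at least 2-fold higher and 5 (10.2%) at least 2-fold lower in Neuro2A. The mitochondrial pairs among them come from 2 long Neuro2A peaks that met 7 short hypothalamus peaks. On placed chromosomes 9 of 42 pairs were at least 2-fold higher and 5 at least 2-fold lower. Among the 34 low-background pairs of the enhancer sgRNA the median log2 ratio of fold enrichment was 0.27, with 23 higher and 11 lower in Neuro2A. The floors alone give -0.08 there. By pileup it was 0.42, with 23 pairs higher and 10 lower in Neuro2A.

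Median levels stood as follows at the low-background pairs. Under the promoter sgRNA the median fold enrichment was 6.24 in Neuro2A and 40.7 in hypothalamus, and the median pileup was 29 in Neuro2A and 71 in hypothalamus. Under the enhancer sgRNA the median fold enrichment was 34.9 in Neuro2A and 16.7 in hypothalamus, and the median pileup was 69 in Neuro2A and 33 in hypothalamus. The difference between the sgRNAs was not tested.

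Several shared sites of high background had tall pileups in both sources. The highest ratio of the promoter sgRNA, 3.31, came from a long Neuro2A peak at chr14:19415565-19419791 that met 2 hypothalamus peaks, with fold enrichments of 5.55 in Neuro2A and 1.68 in hypothalamus. The summits of that pair were 1836 bp apart, and against the other hypothalamus peak, whose summit was 2 bp away, the ratio was 2.51. On chromosome 2, over 1 Mb from Lrrc4c, a peak at chr2:98662044-98663152 had pileups of 413 in Neuro2A and 376 in hypothalamus with the promoter sgRNA, and a fold enrichment ratio of 2.75. With the enhancer sgRNA it reached a pileup of 393 and a fold enrichment of 20.2 in Neuro2A and was not listed in hypothalamus. At the start of chromosome 9 a promoter sgRNA peak, 299 kb from Alkbh8, had pileups of 158 in Neuro2A and 145 in hypothalamus and a fold enrichment ratio of 1.88. A peak over Gm33838 on chromosome 9 had pileups of 318 in Neuro2A and 312 in hypothalamus with the promoter sgRNA. With the enhancer sgRNA its pileup was 303 in Neuro2A, and it was not listed in hypothalamus. All 4 of these sites were in both SaCas9 lists.

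**Figure D3:**
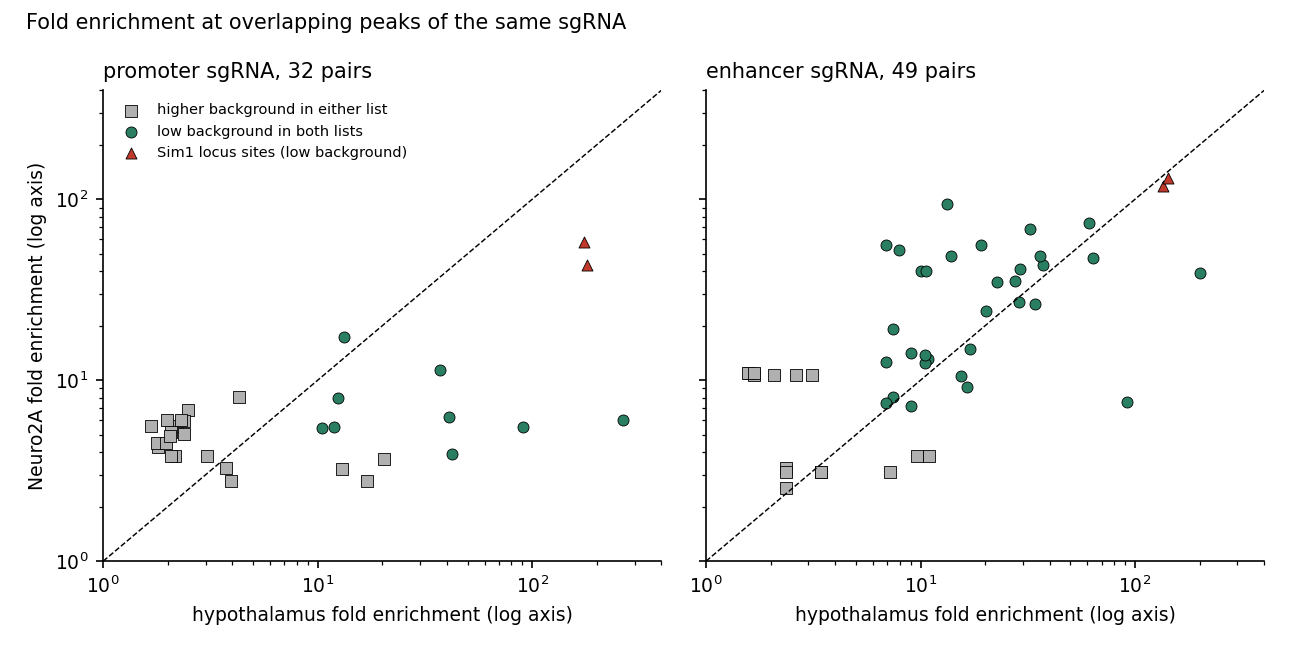
Fold enrichment in Neuro2A (vertical, log axis) against hypothalamus (horizontal, log axis) for every pair of overlapping peaks of the promoter sgRNA (left, 32 pairs) and the enhancer sgRNA (right, 49 pairs), with equality as a dashed line. Of the low-background pairs, Sim1 sites included, 10 of 11 lie below the line with the promoter sgRNA and 23 of 34 lie above it with the enhancer sgRNA.

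The strongest site of the tissue was far weaker in the cell line. It lies between genes at chr14:15657551-15658482, 219 kb from the coding gene Lrrc3b. With the promoter sgRNA its pileup was 24 in Neuro2A and 378 in hypothalamus, and its fold enrichment 6.02 in Neuro2A and 266 in hypothalamus, the lowest ratio of that sgRNA at 0.0227. With the enhancer sgRNA its pileup was 77 in Neuro2A and 376 in hypothalamus, and its fold enrichment 39.2 in Neuro2A and 200.2 in hypothalamus. In hypothalamus it exceeded both Sim1 sites, and in Neuro2A it was below both, with either sgRNA.

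A site in Tead1, a transcription factor of the Hippo pathway, had a pileup of 22 in Neuro2A and 159 in hypothalamus with the promoter sgRNA, and fold enrichments of 5.54 in Neuro2A and 90.5 in hypothalamus. With the enhancer sgRNA its fold enrichment was 47.3 in Neuro2A and 63.4 in hypothalamus. A site near Cst9 (chr2:148839384-148840082) had the lowest ratio of the enhancer sgRNA, 0.0821, with fold enrichments of 7.55 in Neuro2A and 91.9 in hypothalamus. With the promoter sgRNA it was in the hypothalamus list alone, at 117. These 3 sites were lower in Neuro2A with either sgRNA wherever both lists held them.

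Other shared sites were higher in the cell line with the enhancer sgRNA. The highest ratio, 8.13, was in Stab2, a scavenger receptor of sinusoidal endothelium, with pileups of 139 in Neuro2A and 12 in hypothalamus and fold enrichments of 56.2 in Neuro2A and 6.90 in hypothalamus. A site between genes at chr1:32972826-32973536 followed, with pileups of 187 in Neuro2A and 24 in hypothalamus and fold enrichments of 94.6 in Neuro2A and 13.3 in hypothalamus. Ctnnbl1, a protein bound to the spliceosome, had fold enrichments of 52.2 in Neuro2A and 7.97 in hypothalamus. Fam83d, a protein of the mitotic spindle, had 40.2 in Neuro2A and 10.1 in hypothalamus, Cdh8 had 48.5 in Neuro2A and 13.9 in hypothalamus, and Pigm, an enzyme of the GPI anchor, had 55.8 in Neuro2A and 19.1 in hypothalamus. With the promoter sgRNA Fam83d was again higher in Neuro2A, at 17.3 in Neuro2A and 13.3 in hypothalamus, while Pigm was lower, at 5.46 in Neuro2A and 10.5 in hypothalamus, as was the site at chr1:32972826-32973536, at 5.54 in Neuro2A and 11.9 in hypothalamus. By pileup Pigm was higher in Neuro2A with that sgRNA, at 29 in Neuro2A and 14 in hypothalamus. So was the site at chr1:32972826-32973536, at 22 in Neuro2A and 16 in hypothalamus. With the promoter sgRNA Stab2 and Ctnnbl1 were in the hypothalamus list alone, each at a fold enrichment of 7.71.

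Several sites were near equal with the enhancer sgRNA. Lrsam1, an E3 ubiquitin ligase, had pileups of 85 in Neuro2A and 85 in hypothalamus, and fold enrichments of 43.3 in Neuro2A and 37.2 in hypothalamus. The site near Srsf5 had 27.2 in Neuro2A and 28.7 in hypothalamus with the enhancer sgRNA, while with the promoter sgRNA it had 11.3 in Neuro2A and 37.0 in hypothalamus. The site near Rcn1 had 73.5 in Neuro2A and 61.1 in hypothalamus with the enhancer sgRNA.

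Of the 15 sites in all 4 lists, 14 lay on placed chromosomes and 11 were in both SaCas9 lists as well. At 5 of them fold enrichment in Neuro2A was higher with the enhancer sgRNA and lower with the promoter sgRNA, and at the others the direction was the same with both sgRNAs or, at 1 site, the sources differed by under 0.1 on the log2 scale with both. The site near Emid1 had the widest swing among those 5, with 3.90 in Neuro2A and 42.4 in hypothalamus with the promoter sgRNA, and 68.2 in Neuro2A and 32.5 in hypothalamus with the enhancer sgRNA. By pileup 2 of the 15 went opposite ways, the site near Emid1 and the site at Rn18s-rs5, which is not among those 5. The rest of those 5 kept 1 direction by pileup. Near Khdrbs2 and in Pigm and Med16 it was higher in Neuro2A with both sgRNAs. Near Adgrd1 it was lower with both, at 69 in Neuro2A and 70 in hypothalamus with the enhancer sgRNA. Near Tubb3 on chromosome 8 the background itself differed. There, at chr8:123426257-123430610, the pileup was 285 in Neuro2A and 35 in hypothalamus with the promoter sgRNA, but fold enrichment was 3.66 in Neuro2A and 20.4 in hypothalamus, over backgrounds of 77.2 in Neuro2A and 0.767 in hypothalamus.

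**Figure D4:**
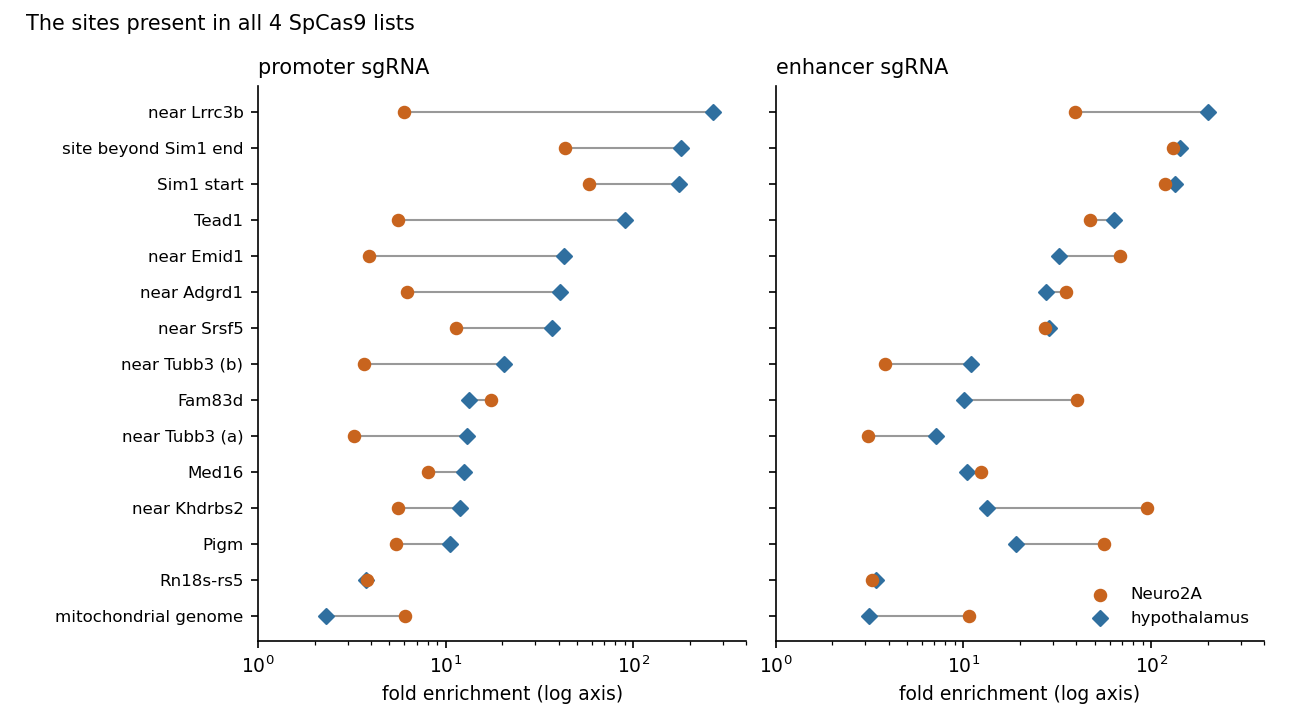
Fold enrichment (log axis) of the 15 sites present in all 4 lists, in Neuro2A (orange circles) and hypothalamus (blue diamonds), with the promoter sgRNA (left) and the enhancer sgRNA (right). The site near Lrrc3b is lower in Neuro2A in both panels, while the sites near Emid1, Adgrd1 and Khdrbs2 and in Pigm and Med16 change sides between the panels.

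By fold enrichment the rank correlation of sites was higher within a source than between sources, over different sets of sites. Over sites on placed chromosomes that pair 1 to 1, Spearman's rho of fold enrichment between Neuro2A and hypothalamus was 0.36 over 19 sites with the promoter sgRNA and 0.47 over 35 sites with the enhancer sgRNA. Between the sgRNAs it was 0.82 over 44 sites in Neuro2A and 0.75 over 64 sites in hypothalamus. By pileup rho was 0.39 and 0.42 between the sources with the promoter and the enhancer sgRNA, against 0.53 in Neuro2A and 0.75 in hypothalamus between the sgRNAs. These are descriptions across sites, and the sites of a list share its libraries. Summits lay a median of 58 bp apart between the sources with the promoter sgRNA and 7 bp apart with the enhancer sgRNA, against 8 bp in Neuro2A and 6 bp in hypothalamus between the sgRNAs.

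Sites of the tissue alone lay on placed chromosomes and often in genes. The 36 sites of both hypothalamus lists and no Neuro2A list had a median fold enrichment of 16.7 with the promoter sgRNA and 16.6 with the enhancer sgRNA. Of them 26 (72.2%) lay in annotated genes, counting any RefSeq gene body, and 2 (5.56%) were in a SaCas9 list. Among all low-background peaks of the hypothalamus lists the share in genes was 61.6% with the promoter sgRNA and 57.9% with the enhancer sgRNA. The strongest lay 1.19 kb from Prkag2 at chr5:24860753-24861545, with pileups of 259 with the promoter sgRNA and 199 with the enhancer sgRNA and fold enrichments of 175 and 99.4, and no peak in Neuro2A. In the promoter sgRNA list of hypothalamus it ranked above the start of Sim1 by fold enrichment.

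Next with the promoter sgRNA came sites in the non-coding gene Gm30242 (fold enrichment 69.4 with the promoter sgRNA and 42.1 with the enhancer sgRNA), near Cyp7b1 (63.2 and 32.8) and near N4bp1 (56.1 and 40.4). By -log10 q-value the enhancer sgRNA list added Atg16l2, a protein related to autophagy (32.9 and 55.8), and a site near Sptlc3 (23.8 and 40.4). Chosen after their values were seen, further sites lay in Tlr9, an innate receptor for DNA (45.6 and 37.7), in Mvp, the major vault protein (32.3 and 32.5), and in Napa, which recycles SNARE complexes (25.2 and 30.8). Klk6, whose start is shown above, had 32.3 and 18.3. Lepr, the leptin receptor of feeding neurons, held a weak one, with pileups of 14 and 17 and fold enrichments of 10.5 and 9.56.

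Some tissue peaks had lower pileups than any listed in the cell line. The lowest pileup listed in Neuro2A with the promoter sgRNA was 21, and 27 of the 60 hypothalamus-specific peaks (45.0%) had a lower one. For the enhancer sgRNA the lowest listed pileup was 10 in Neuro2A, and 0 of the 91 hypothalamus-specific peaks were below it. For those weak promoter sgRNA sites the Neuro2A list, whose floor was the higher one, shows no peak of their pileup anywhere. The site near Prkag2, at a pileup of 259, lay well above it.

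Sites of both Neuro2A lists and no hypothalamus SpCas9 list had lower fold enrichment, higher pileup and another place. Of these 65 sites, 38 lay on scaffolds or at the start of chromosome 9, 14 (21.5%) lay in annotated genes, and 62 (95.4%) were in a SaCas9 list. All 14 in genes were among the 27 sites on placed chromosomes, where all 36 hypothalamus sites lay. Scaffolds carry no gene in the annotation table, which lowers the share in genes. Median fold enrichment was 3.64 in these Neuro2A sites and 16.7 in the 36 hypothalamus sites with the promoter sgRNA, and 7.98 and 16.6 in the same order with the enhancer sgRNA. By median pileup the order turned, at 83 in the Neuro2A sites and 25.5 in the hypothalamus sites with the promoter sgRNA, and 52 in the Neuro2A sites and 35 in the hypothalamus sites with the enhancer sgRNA. Among the Neuro2A-specific peaks of highest -log10 q-value with the promoter sgRNA were the second mitochondrial peak (pileup 509, fold enrichment 6.17), scaffold peaks on JH584304.1 (6.71) and GL456396.1 (6.67) and a pair of peaks on chromosome 2 over 1 Mb from Lrrc4c (3.54 and 4.56). The mitochondrial peak is not among the 65 sites, because the enhancer sgRNA list of hypothalamus held peaks there. Sites in genes included Astn2, a protein of neuronal migration (6.36 with the promoter sgRNA and 22.3 with the enhancer sgRNA), and Rgma, an axon guidance protein (6.02 and 19.1), both chosen after their values were seen. BC016579, whose start is shown above, had the highest promoter sgRNA fold enrichment of the 65, 10.1, and stood at 7.04 with the enhancer sgRNA. Its pileups there were 41 and 13. The SaCas9 list of the promoter sgRNA, from hypothalamus, held it at a fold enrichment of 40.3 and a pileup of 146. That list also held Astn2 at 13.1 and Rgma at 14.8. The SaCas9 list of the enhancer sgRNA held BC016579 at 3.66 and neither of the other sites.

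**Figure D5:**
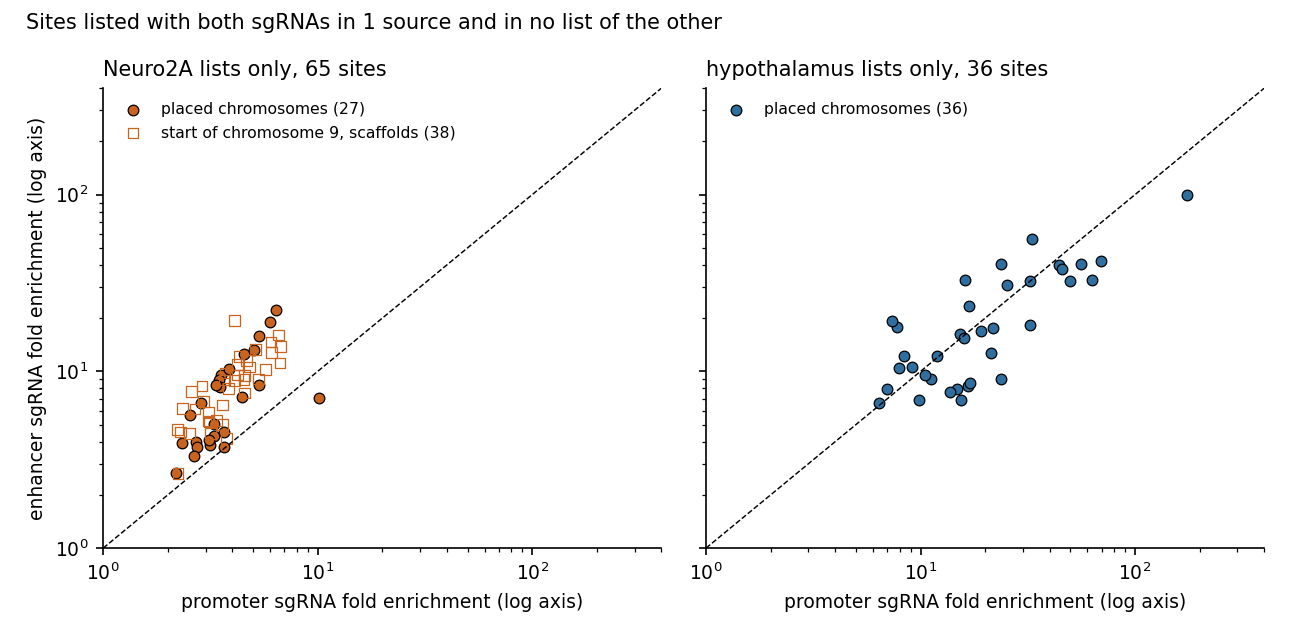
Fold enrichment with the enhancer sgRNA (vertical, log axis) against the promoter sgRNA (horizontal, log axis), with equality as a dashed line. On the left are 65 sites in both Neuro2A lists and no hypothalamus SpCas9 list. On the right are 36 sites in both hypothalamus SpCas9 lists and no Neuro2A list. Of the 65 sites, 62 were in a SaCas9 list from hypothalamus. Neuro2A sites reach 10.1 and 22.3 on the 2 axes, and hypothalamus sites reach 175 and 99.4.

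The enhancer sgRNA list of Neuro2A also held strong peaks that no other SpCas9 list had. It held 85 such peaks (41.5% of the list), 60 of them on placed chromosomes with low background. Of those 60, 19 had a fold enrichment of at least 20. In hypothalamus 0 of 42 such peaks did with the enhancer sgRNA and 0 of 9 with the promoter sgRNA. In Neuro2A with the promoter sgRNA 0 of 3 did, which cannot be compared. The floor of that list was 3.15, and apart from both Sim1 sites its highest fold enrichment was 17.3. The highest pileup of such peaks was 116 in Neuro2A and 36 in hypothalamus with the enhancer sgRNA. With the promoter sgRNA it was 55 in Neuro2A and 21 in hypothalamus. Of the 60, 39 (65.0%) lay in genes and 5 in a SaCas9 list. Among all 126 low-background peaks of the enhancer sgRNA list of Neuro2A, 66 (52.4%) lay in genes and 41 in a SaCas9 list. Named after their values were seen, the first 4 lay in Tmem45b (pileup 116, fold enrichment 58.9), near Epas1 (110 and 55.8), in Myo7a, a myosin of sensory hair cells (97 and 49.3), and in Fam53b (92 and 46.8). The fifth lay 111 kb from Mc4r, the melanocortin receptor that restrains feeding (71 and 36.2). A still stronger Neuro2A-specific peak of this sgRNA, in the non-coding gene Gm32168 (chr15:74481220-74482153), had a pileup of 244 and a fold enrichment of 86.5, and recurred weakly in hypothalamus with the promoter sgRNA, at a pileup of 8 and a fold enrichment of 6.31.

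Set side by side on placed chromosomes without the start of chromosome 9, the share of peaks in genes differed less than over all peaks. Of the promoter sgRNA peaks it was 28 of 44 Neuro2A-specific peaks (63.6%, 95% Wilson interval 48.9 to 76.2) and 41 of 60 hypothalamus-specific peaks (68.3%, 55.8 to 78.7), and 9 of 21 shared Neuro2A peaks (42.9%, 24.5 to 63.4). Of the enhancer sgRNA peaks it was 56 of 96 Neuro2A-specific peaks (58.3%, 48.3 to 67.7) and 53 of 91 hypothalamus-specific peaks (58.2%, 48.0 to 67.8), and 24 of 40 shared Neuro2A peaks (60.0%, 44.6 to 73.7). Over all places it was 29.3% of Neuro2A-specific and 68.3% of hypothalamus-specific peaks with the promoter sgRNA, and 34.4% of Neuro2A-specific and 58.2% of hypothalamus-specific peaks with the enhancer sgRNA. The intervals cover counting error only and overlap for every pair of classes on placed chromosomes. They treat peaks as independent, although neighbouring peaks in the same gene are counted separately. Sfi1 and Tmem267 each hold several Neuro2A-specific peaks of the promoter sgRNA. Peaks of a list are not replicates of a source, and no difference between classes was tested. Summits within 1 kb of a start in the RefSeq table of starts were counted on the same chromosomes. With the promoter sgRNA they were 1 of 44 Neuro2A-specific (2.27%), 5 of 60 hypothalamus-specific (8.33%) and 2 of 21 shared Neuro2A peaks (9.52%). With the enhancer sgRNA they were 1 of 96 (1.04%), 5 of 91 (5.49%) and 3 of 40 (7.5%) in the same order. The share of the genome that lies so near a start was not computed.

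RNA of hypothalamus was measured in 19 other libraries of the series, as normalized counts that are not scaled by gene length. They came from B6/FVB mice of both sexes aged 3 to 9 months, 4 Sim1 +/- with the enhancer sgRNA, 6 Sim1 +/- with the promoter sgRNA, 4 Sim1 +/- without an sgRNA and 5 wild type, and medians below are over all 19. Of the 23 coding genes that hold shared peaks on placed chromosomes, 22 were in the table, and 19 of these had a median of at least 100, or 86.4%. Of the 25 coding genes that hold peaks of both hypothalamus lists alone, 23 were in the table and 15 reached that median, or 65.2%, and over all 22447 genes of the table it was 55.8%. Pkd1l2 and Stab2, which hold shared peaks, ran from 2.1 to 15.9 and from 1.7 to 37.3, so a peak was listed in genes with little RNA as well. Sim1 ran from 272 to 353 in the enhancer sgRNA mice, from 155 to 431 in the promoter sgRNA mice, from 121 to 330 in Sim1 +/- mice without an sgRNA and from 305 to 547 in wild type. Its group medians were 287, 209, 197 and 394 in the same order. The ranges overlap, and no difference in Sim1 RNA between the groups was tested here. RNA of Neuro2A was not analysed here.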

How the data were processed

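Cas9 ChIP-seq of Neuro2A cells and hypothalamus was analysed from peak lists, 1 per sgRNA, source and antibody, 6 in all. Per the labels' protocols, chromatin was fixed with 1% formaldehyde, pulled down with the Low cell ChIP kit and made into ThruPLEX libraries. Tools named in the submitters' processing notes are MACS2 2.1.1.20160309, STAR 2.5.2b, CASAVA 1.8 and DESeq2 1.16.1, and the build named there is mm9. The scaffold names and coordinates in the lists are those of GRCm38, so positions were read against RefSeq genes of GRCm38.p6. The depth of the ChIP libraries, the control of each list and how replicates were combined are not stated in the sources used here.

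Per the file headers, the authors deposited for each peak a fold enrichment (a ratio to local background), a summit pileup (a signal), and -log10 p-values and q-values. For hypothalamus RNA the authors deposited normalized counts, a signal per gene and library. The background was computed as (pileup + 1) / fold enrichment - 1, and a Poisson tail from pileup and background gave back the deposited -log10 p-value within 0.000472 for 544 of 561 SpCas9 peaks, and for the other 17 it was too small to compute. Peaks of the same sgRNA were matched where they overlapped by at least 1 bp, in Python 3.11.15 with pandas 2.3.3. The matching was tested on simulated intervals. Background was called low under 5 times the lowest of a list, a limit chosen after the data were seen.

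Named are peaks within 1 Mb of Sim1, the 12 shared sites of highest Neuro2A fold enrichment, the 5 source-specific peaks of highest -log10 q-value, and the extreme ratios, per sgRNA. Where others are named the text says so or gives them as members of a count. A site that this rule covers is not reported here. The members and lists were chosen with earlier results of these data known. No exon or intron annotation and no genome were used here.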

Additional observations from a re-analysis of the deposited data

How the results depend on the processing

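Of 52 alternatives, 41 kept the direction and stayed close to the reported value (a count within 1.5 times). Requiring an overlap of 50% of each peak, allowing gaps of 500 or 5000 bp, raising the -log10 q-value to 5 or 10, cutting lists to equal length, or dropping scaffolds and the mitochondrial genome kept shared Neuro2A peaks between 21 and 40 for the promoter sgRNA and between 32 and 42 for the enhancer sgRNA. Without peaks also in a SaCas9 list they numbered 2 of 10 and 20 of 97, shares near those of the whole lists, 28 of 127 and 42 of 205. The median log2 ratio of the promoter sgRNA, 0.35 over all pairs, changed sign to -0.34 with the highest peak of each merged site, -0.49 on placed chromosomes with the start of chromosome 9, -0.79 without it and -1.71 at low background. The low-background setting leaves out the 21 other pairs, whose median was 1.19. Settings on placed chromosomes leave out pairs on scaffolds and the mitochondrial genome but keep other high-background pairs. For the enhancer sgRNA 0.36 became 0.25 on placed chromosomes, with or without the start of chromosome 9, and 0.22 by pileup, with the same sign. The share of Neuro2A-specific peaks in genes was 46.7% and 47.9% with the promoter and enhancer sgRNA on placed chromosomes, start of chromosome 9 included. No paired analysis was possible because each list holds both replicates with 1 value per peak. For the same reason no replicate could be left out. The limits at low signal are the lowest listed pileups, 21 in Neuro2A and 8 in hypothalamus with the promoter sgRNA, and 10 in Neuro2A and 10 in hypothalamus with the enhancer sgRNA.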

Other observations

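A peak lay on the Y chromosome (chrY:20665192-20665763), in the Neuro2A list of the promoter sgRNA, with a pileup of 60 and a fold enrichment of 2.90. The hypothalamus list of that sgRNA, whose mice are labelled female, and the other 2 SpCas9 lists held none there.

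On the mitochondrial genome the shape of the calls differed. Neuro2A had 2 long peaks in each list, with pileups of 497 and 509 with the promoter sgRNA and 282 and 290 with the enhancer sgRNA. Hypothalamus had 2 short peaks with the promoter sgRNA, with pileups of 95 and 98, and 7 short peaks with the enhancer sgRNA, with pileups between 218 and 316. Fold enrichments were 6.03 and 6.17 in Neuro2A, against 1.99 and 2.29 in hypothalamus, with the promoter sgRNA. With the enhancer sgRNA they were 10.6 and 10.9 in Neuro2A and between 1.57 and 3.13 in hypothalamus.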
